A study of Mus musculus with 10 samples.

Results

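Mitochondrial ribosomal proteins were followed in mouse brain at 1 week and at 8 weeks of age, as the probe sets whose only annotated symbol began with Mrpl or Mrps. There were 127 such probe sets of 22626 on the array, for 74 genes, and 103 probe sets of 73 genes passed the filter on dim probe sets. Mrpl33 was the gene with no probe set left, and 3 probe sets that list a second gene beside an Mrpl or Mrps gene were not counted. The samples were brains of C57BL/6, an inbred laboratory strain, each read on 1 Affymetrix MOE430A array. At 1 week the labels give 3 female and 3 male brains, and at 8 weeks 2 of each sex. The labels name no treatment or allele, and they number the brains without stating that they came from separate animals, so p-values measure the spread between these samples.

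Mitochondria carry their own ribosome, which makes the small set of respiratory chain proteins encoded in mitochondrial DNA. Its RNA comes from that DNA, while its proteins are encoded in the nucleus, made in the cytosol and imported. The large subunit, with proteins mostly from Mrpl genes, holds the site of peptide bond formation and the exit tunnel. The small subunit, with proteins mostly from Mrps genes, holds the messenger RNA and the decoding site. Some descend from bacterial ribosomal proteins and others were added in mitochondria. Brain tissue depends on respiration, and defects in several of these genes cause disease of brain or heart in humans.

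Deposited intensities were not on a common scale, with trimmed means from 138 to 318, and were quantile-normalized, so every change is relative to the whole distribution of intensities. Within groups the arrays correlated at 0.973 to 0.981 and between ages at 0.933 to 0.951. Xist and Eif2s3y, transcripts of the X and Y chromosomes, opposed the sex label in 4 of the 6 arrays at 1 week (replicates 1 and 2 labelled female, 2 and 3 labelled male) and were both high in replicate 3 labelled female. High meant an Xist level above 600 and an Eif2s3y level above 40, limits set with the values known. The arrays nearest to these limits read 293 and 866 for Xist and 6.09 and 53.9 for Eif2s3y. Arrays are therefore named by label only, and age results are also given without those 4 arrays. That leaves replicate 3 labelled female and replicate 1 labelled male as the only arrays of 1 week. The number of arrays limits the precision. Markers of the cell types of brain differed between the ages. The summed level of 5 neuron markers ran from 13248 to 14656 at 1 week and from 12162 to 12766 at 8 weeks, that of 4 myelin markers from 1372 to 6753 and from 8812 to 11309, and that of 4 markers of dividing cells from 629 to 1185 and from 72.3 to 101. The neuron sum held opposite moves, with 2 of 5 markers higher and 2 lower. Of the microglia markers 5 of 5 were higher (1942 to 2318, then 2599 to 3547), and the 5 pituitary markers summed to 235 to 2613 and 988 to 13446. The 5 markers of meninges and mural cells summed to 1731 to 9098 at 1 week and 697 to 958 at 8 weeks, and the 5 cerebellar neuron markers to 1309.8 to 3661 and 3467 to 13249. In these lists 0 markers were at 0, and their part in the results was not tested. In bulk tissue, fewer cells of a type and less RNA per cell cannot be told apart.

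Promoter stretches of 4 genes are shown first, because these genes recur in the results: Mrps24 had the largest fall and Mrps14 the largest rise of any probe set, Mrpl52 had probe sets past the threshold beside its brightest, which did not pass, and Mrpl46 starts beside another member, Mrps11. The sequences are RefSeq's, build GRCm38.p6, 5′ to 3′ on the gene's strand, and end at the base before the annotated start. For Mrpl46 only the bases between its start and that of Mrps11 are given. Capitals mark matches to the motifs described further on. The regions are chr11:5707702-5707851 on the minus strand for Mrps24, chr14:54426759-54426908 on the plus strand for Mrpl52, chr1:160195065-160195214 on the plus strand for Mrps14 and chr7:78783090-78783130 on the minus strand for Mrpl46.
Mrps24: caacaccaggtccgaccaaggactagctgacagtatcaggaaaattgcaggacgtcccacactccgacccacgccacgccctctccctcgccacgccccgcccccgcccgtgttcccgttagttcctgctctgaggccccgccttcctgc
Mrpl52: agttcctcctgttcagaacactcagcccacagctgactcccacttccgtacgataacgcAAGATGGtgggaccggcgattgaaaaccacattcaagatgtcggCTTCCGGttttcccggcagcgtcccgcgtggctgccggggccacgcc
Mrps14: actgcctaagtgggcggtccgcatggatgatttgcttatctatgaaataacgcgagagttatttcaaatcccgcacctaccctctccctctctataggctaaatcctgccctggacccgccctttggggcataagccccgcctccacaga
Mrpl46: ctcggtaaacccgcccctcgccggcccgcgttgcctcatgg

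The first comparison asked how the transcripts of the mitochondrial ribosome differed between the ages. Most did not pass the test, and those that did moved in both directions. Of 103 member probe sets, 13 rose and 17 fell from 1 to 8 weeks (adjusted p under 0.05), and 73 did not pass. That was 29.1% of the members, where 46.0% of all 13576 probe sets tested passed. The share past the threshold was 12.6% higher and 16.5% lower, against 22.0% and 24.0% of all probe sets. A pseudocount of 24 was added before log2 was taken, which shrinks the changes of dim probe sets. On that scale the changes ran from -0.93 to 0.87, with a median of -0.0508 beside -0.0150 for all probe sets, and 0 members reached 2-fold where 6.21% of all probe sets did so past the threshold. The pseudocount bears on that 0: before it was added, the mean of the largest fall, Mrps24, was 465 ± 81.2 (SD, n = 6) at 1 week and 229 ± 7.87 (SD, n = 4) at 8 weeks. The median size of the change, whatever its sign, was 0.15 for members and 0.25 for all probe sets. Members were measured about as tightly as other probe sets, with a median SE of 0.0923 beside 0.0999. In 23 members, 22.3%, the arrays of the ages did not overlap (9 higher and 14 lower), where this held for 35.4% of all probe sets. The median normalized intensity over the members ran from 264 to 293 in the arrays of 1 week and from 249 to 267 in those of 8 weeks.

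The count of higher members rested on single arrays more than that of lower members. It was 6 without replicate 2 labelled female at 8 weeks and also 6 without replicate 1 labelled male at 8 weeks, while lower members numbered 13 to 18 when any 1 array was left out. The share of all probe sets past the threshold was 38.4% and 40.6% in these same fits. A fit of age only that dropped the 4 arrays with opposed sex transcripts called 5 members higher and 13 lower of 105, against 29.8% of all probe sets, and 16 of the 30 calls were kept. Values taken as deposited, with no scaling between arrays, had a median change of 0.47 over all probe sets. There 77 members were higher and 1 lower, with 68.5% of all probe sets past the threshold. Scaled to the spike-in controls, with an overall median of 0.14, the split was 16 higher to 3 lower, with 31.5% of all probe sets past it. With replicate number as a block it was 13 to 19, against 43.5%.

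**Figure D1:**
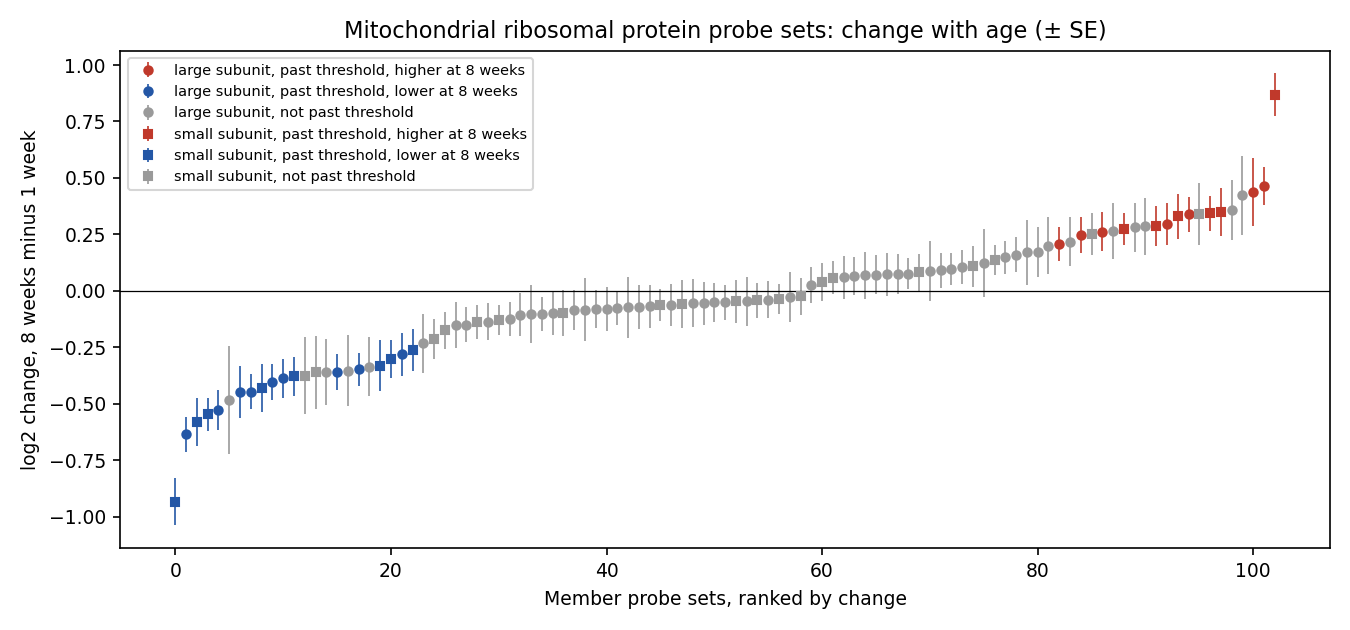
Log2 change from 1 to 8 weeks (± SE) of the 103 member probe sets tested, in order of change. Circles are large subunit and squares small subunit proteins, with Mrps30 and Mrps18a counted in the large subunit and the others by symbol. By that rule Mrps36 is drawn as a square, although its protein is not of the ribosome. The 17 lower and 13 higher probe sets lie at the ends, and the points run from -0.93 to 0.87.

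Taking the brightest probe set of each gene, 8 of 73 genes were higher, 13 lower and 52 did not pass, where 45.9% of all genes passed. Among 27 large subunit genes with a bacterial homologue, 2 were higher, 3 lower and 22 did not pass. Among 19 large subunit genes added in mitochondria, 3 were higher and 4 lower. Of 15 small subunit genes with a bacterial homologue, 2 were higher and 5 lower, and of 9 small subunit genes added in mitochondria, 1 was higher and 1 lower. Counted by probe set, the share past the threshold was 13.2% of 38 for the large subunit proteins with a bacterial homologue, 37.9% of 29 for those added in mitochondria, 45.5% of 22 for the small subunit proteins with a bacterial homologue and 36.4% of 11 for those added in mitochondria. The difference between these classes was not tested. Mrpl55, Mrpl58 and Mrps36 were on none of the gene lists used for these classes, and the lists need not be complete. None of them passed, with Mrps36 at 329 ± 18.7 (SD, n = 6) at 1 week and 344 ± 20.9 (SD, n = 4) at 8 weeks. The Mrps36 protein is now known as a part of the oxoglutarate dehydrogenase complex, not of the ribosome.

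The small subunit held the largest changes in either direction. Mrps24, the mitochondrial form of a protein at the channel where messenger RNA enters, read 398 to 624 at 1 week with a median of 436. At 8 weeks it read 218, 235, 229.8 and 234 in replicates 1 and 2 labelled female and 1 and 2 labelled male. All 4 arrays of 8 weeks lay below all 6 of 1 week, and those of 8 weeks lay close together. The change was -0.93 ± 0.10 (adjusted p = 5.71e-05) and past the threshold in all 21 alternatives, with adjusted p from 2.21e-05 to 0.00728. Without the 4 arrays opposing their label it was -1.12 ± 0.15 (adjusted p = 0.00147). At 1 week that fit rests on replicate 3 labelled female, at 437, and replicate 1 labelled male, the highest at 624. A second Mrps24 probe set went from 165 ± 19.4 (SD, n = 6) to 121 ± 7.15 (SD, n = 4) and fell too (-0.38 ± 0.0863, adjusted p = 0.00500).

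Other small subunit falls were smaller. Mrps15, which binds the small ribosomal RNA, read 175 to 243 at 1 week, median 217, and 111, 130.3, 146 and 148 at 8 weeks. The ages did not overlap, and the change was -0.58 ± 0.10 (adjusted p = 0.00125). Its dimmer probe set also lay below 0, at -0.14, and did not pass. Mrps6, a protein of the platform of the subunit, read 333 to 400.4 at 1 week, median 358, and 218, 256, 241 and 253 at 8 weeks. Again every array of 8 weeks was below every array of 1 week (-0.55 ± 0.0724, adjusted p = 1.81e-04). Mrps21 read 433 to 631 at 1 week, median 517, and 445, 469.7, 314 and 321 at 8 weeks. The arrays labelled female at 8 weeks lay within the range of 1 week and those labelled male below it (-0.43 ± 0.11, adjusted p = 0.00763). Mrps21 lost its call without the 4 arrays opposing their label, at -0.25 ± 0.18 (adjusted p = 0.335, 0.00226 to 0.583 over its alternatives). By brightest probe set, Mrps16 and Mrps31 also fell, by 0.26 and 0.30 on the log2 scale. The ages overlapped in Mrps31, which lost its call without the 4 arrays opposing their label, at -0.38 (adjusted p = 0.0607). Mrps16 kept its call there, at -0.34 (adjusted p = 0.0438). Mrps5 fell on its dimmer probe set (-0.33 ± 0.11, adjusted p = 0.0346), while its brighter one was at -0.0246 and did not pass.

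Rises in the small subunit were led by Mrps14, a protein of the head of the subunit. Its dimmer probe set read 109 to 159 at 1 week, median 136, and 293, 262, 250.5 and 258 at 8 weeks. The ages stood far apart on this probe set, and the change was 0.87 ± 0.0947 (adjusted p = 5.16e-05). Its brighter probe set went from 663 ± 28.0 (SD, n = 6) to 808 ± 51.4 (SD, n = 4), also without overlap, a change of 0.27 ± 0.0719 (adjusted p = 0.0104). The brighter one lost its call without replicate 2 labelled female at 8 weeks, at 0.22 (adjusted p = 0.0538, 4.41e-05 to 0.122 over its alternatives). Mrps9, which reaches toward the decoding site, went from 102 ± 15.2 (SD, n = 6) to 135 ± 6.12 (SD, n = 4), with the lowest array of 8 weeks at 129.7 and the highest of 1 week at 118 (0.34 ± 0.0778, adjusted p = 0.00485). That was its brightest probe set. The other tested probe sets of Mrps9 overlapped between the ages and did not pass. They were at 0.34 ± 0.14 (adjusted p = 0.0671) and 0.11 ± 0.0905 (adjusted p = 0.357). Mrps25 rose on each of its tested probe sets, by 0.35 ± 0.11 and 0.29 ± 0.0888, with overlap between the ages. Its brighter probe set lost the call without replicate 2 labelled female or replicate 1 labelled male at 8 weeks, at 0.28 to 0.30 (adjusted p = 0.0855 to 0.0881, 7.19e-05 to 0.0923 over its alternatives). Without the 4 arrays opposing their label, the brightest probe sets of Mrps9, Mrps14 and Mrps25 were at 0.25, 0.25 and 0.35 and did not pass (adjusted p from 0.0923 to 0.122). The dimmer probe set of Mrps14 kept its call there, at 0.90 ± 0.11 (adjusted p = 9.89e-04).

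In the large subunit, Mrps18a and Mrpl54 had the largest falls among brightest probe sets. Despite its symbol Mrps18a sits in the large subunit, as a relative of a bacterial small subunit protein. It read 464 to 699 at 1 week, median 550.2, and 406, 434, 436 and 376 at 8 weeks. The spread was wider at 1 week, yet the ages did not overlap (-0.45 ± 0.11, adjusted p = 0.00908). Mrpl54, a protein added in mitochondria, read 131 to 162 at 1 week, median 139.7, and 92.2, 97.5, 103 and 95.7 at 8 weeks, again without overlap (-0.45 ± 0.0765, adjusted p = 9.48e-04). Mrpl12, the stalk protein that recruits translation factors and also binds the mitochondrial RNA polymerase, read 296 to 414 at 1 week, median 349.9, and 240.2, 289, 265 and 257 at 8 weeks. Its lowest array of 1 week and its highest of 8 weeks nearly met (-0.39 ± 0.0865, adjusted p = 0.00450). Mrpl23, Mrpl34 and Mrpl37 also fell, by 0.35, 0.36 and 0.28 on the log2 scale (adjusted p = 0.00320, 0.00432 and 0.0346). The ages overlapped in Mrpl37. Mrps18a, Mrpl12 and Mrps21 turned above 0 on the deposited scale without normalization, at 0.0833, 0.12 and 0.10, all under the overall median there of 0.47. Scaled to the spike-in controls, Mrps6, Mrps18a, Mrps21, Mrpl12 and Mrpl54 lost their calls, at -0.38, -0.27, -0.26, -0.22 and -0.32, while Mrps24 and Mrps15 kept theirs, at -0.77 and -0.43. Taken relative to the median of all probe sets, those 5 were at -0.52, -0.41, -0.40, -0.36 and -0.45 there, beside -0.53, -0.43, -0.42, -0.37 and -0.43 after quantile normalization. Without the 4 arrays opposing their label, Mrps6, Mrps15, Mrps18a, Mrpl12 and Mrpl54 kept their calls (adjusted p from 0.00702 to 0.0315). Mrpl34 kept its call there too, at -0.43 (adjusted p = 0.0367). Mrpl23 and Mrpl37 lost theirs, at -0.32 and -0.12 (adjusted p = 0.0610 and 0.562).

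Mrpl52 is named here although its brightest probe set missed the threshold, a choice made after its values were seen. That probe set changed by -0.34 (adjusted p = 0.0603). The other tested probe sets of Mrpl52 fell, from 298 ± 15.8 (SD, n = 6) to 183 ± 12.9 (SD, n = 4) and from 178 ± 22.2 (SD, n = 6) to 116 ± 11.4 (SD, n = 4). On each of them the ages did not overlap, with changes of -0.64 ± 0.0767 (adjusted p = 9.93e-05) and -0.53 ± 0.0881 (adjusted p = 7.92e-04).

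Mrpl44, a protein with the fold of an RNA-cleaving enzyme, had the largest rise among the brightest probe sets. It read 577 to 705 at 1 week, median 608, and 893, 919, 890.3 and 779 at 8 weeks. All 4 arrays of 8 weeks were above all 6 of 1 week (0.46 ± 0.0824, adjusted p = 0.00118), and the call held in all 21 alternatives, with adjusted p from 1.12e-05 to 0.0364. The other tested probe sets of Mrpl44 were at 0.16 ± 0.0782 (adjusted p = 0.120) and 0.0737 ± 0.10 (adjusted p = 0.562) and did not pass. Mrpl45, which lies at the tunnel exit and faces the inner membrane, read 164 to 225 at 1 week, median 203, and 234, 283, 254 and 242 at 8 weeks. The gap between the ages was narrow (0.30 ± 0.0923, adjusted p = 0.0236). The Mrpl45 call was lost without replicate 2 labelled female or replicate 1 labelled male at 8 weeks, at 0.23 to 0.28 (adjusted p = 0.0712 to 0.102, 2.61e-04 to 0.102 over its alternatives). Mrpl46 of the central protuberance and the tunnel proteins Mrpl4 and Mrpl22 rose by 0.26 ± 0.0862, 0.25 ± 0.0793 and 0.21 ± 0.0748, with the ages overlapping or touching in each. These 3 calls were the least stable. Mrpl46 lost its call without any 1 of 6 arrays (at 1 week replicate 1 labelled female and replicates 1 and 2 labelled male, and at 8 weeks replicate 2 labelled female and both labelled male), at 0.18 to 0.27 (adjusted p = 0.0547 to 0.137, 1.79e-04 to 0.161 over all alternatives). Mrpl4 lost its call without any 1 of 4 arrays (replicates 2 and 3 labelled male at 1 week, replicate 2 labelled female and replicate 2 labelled male at 8 weeks), at 0.19 to 0.24 (adjusted p = 0.0538 to 0.113, 1.00e-04 to 0.208 over all alternatives). Mrpl22 lost it without any array of 1 week or replicate 2 labelled female or replicate 1 labelled male of 8 weeks, at 0.16 to 0.22 (adjusted p = 0.0592 to 0.162, 1.86e-04 to 0.208 over all alternatives). Without the 4 arrays opposing their label, Mrpl45, Mrpl46, Mrpl4 and Mrpl22 did not pass either, at 0.36, 0.26, 0.21 and 0.22 (adjusted p from 0.0998 to 0.208), while Mrpl44 did (0.41 ± 0.12, adjusted p = 0.0364).

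**Figure D2:**
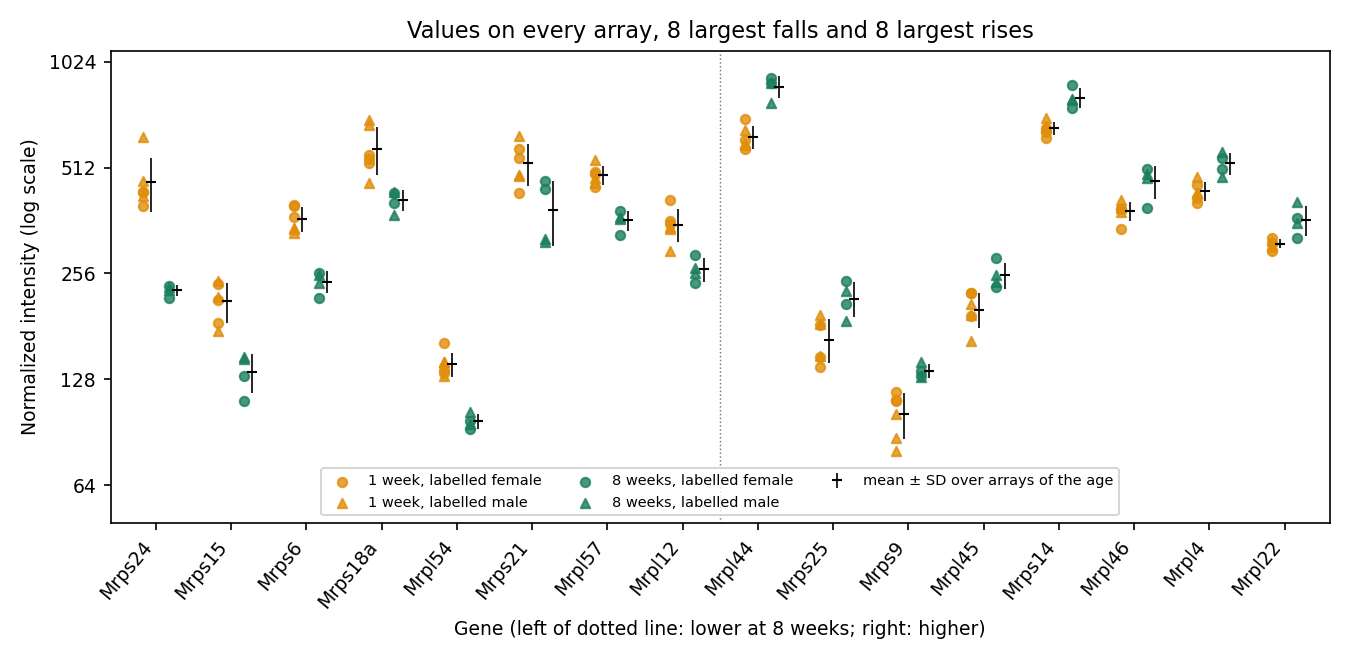
Normalized intensity (log axis) on every array for the 8 largest falls and 8 largest rises among brightest probe sets past the threshold; orange points are 1 week and green 8 weeks, circles are labelled female and triangles labelled male, and black bars give the mean ± SD over the 6 or 4 arrays of an age. Mrpl57 is drawn by its brighter probe set; Mrps24 fell from a median of 436 to between 218 and 235, while Mrpl44 rose from a median of 608 to between 779 and 919.

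Probe sets of the same gene were set side by side, since they can read different stretches or forms of a transcript. Probe sequences were not at hand, so agreement between them is not taken as an independent check. Of 23 genes with several tested probe sets, 17 had the same sign in all of them. In 11 of these genes at least 1 probe set was past the threshold. Mrps14, Mrps24 and Mrps25 had every tested probe set past it in 1 direction, 7 genes had some past it and some not, and Mrpl57 had calls in opposite directions. Among those 7, Mrps23 and Mrpl48 rose on their dimmer probe sets only (0.33 ± 0.10, adjusted p = 0.0206, and 0.44 ± 0.15, adjusted p = 0.0382). Their brighter ones were at -0.0353 and 0.42 and did not pass. Without the 4 arrays opposing their label, Mrps23 kept that call, at 0.50, and Mrpl48 lost it, at 0.31. The brighter probe set of Mrpl57, a protein added in mitochondria, read 451 to 539 at 1 week, median 484, and 329, 384, 369.5 and 366 at 8 weeks. The dimmer read 114 to 155 at 1 week, median 138, and 185, 176, 165 and 180.0 at 8 weeks. Neither overlapped between ages, and their changes were -0.40 ± 0.0788 (adjusted p = 0.00209) and 0.34 ± 0.0763 (adjusted p = 0.00473). Which of them follows the gene was not tested, so no direction is drawn for Mrpl57 itself. The counts by gene follow its brighter probe set and so hold it as lower, and on the deposited scale the brighter one was at 0.13. Among genes with no call, Mrpl11 and Mrpl28 had 3 tested probe sets each, with changes from -0.15 to -0.10 and from -0.14 to -0.0556. Mrpl13, whose probe set read brightest of all members, was at 773 ± 48.1 (SD, n = 6) and 745 ± 46.5 (SD, n = 4), a change of -0.0508 ± 0.0765 (adjusted p = 0.621).

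**Figure D3:**
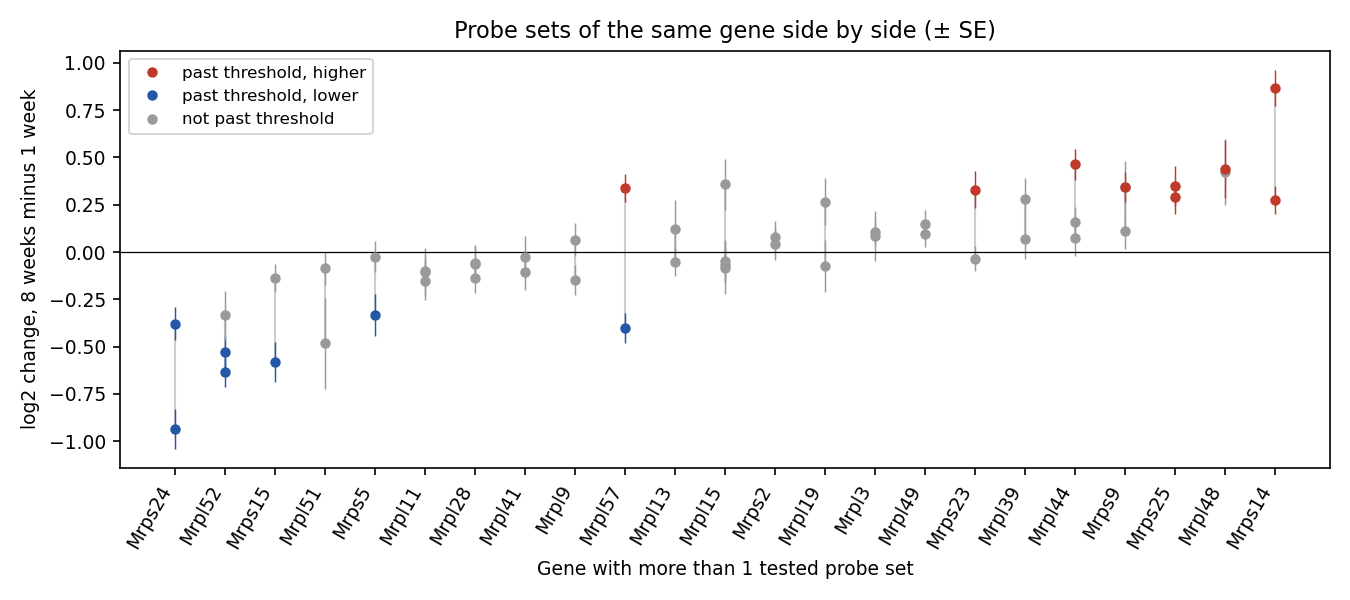
Log2 change from 1 to 8 weeks (± SE) of each tested probe set of the 23 genes that had more than 1, with red and blue for those past the threshold and grey for the rest. The probe sets of Mrps24 and Mrps14 lie on the same side of 0, and those of Mrpl57 lie at -0.40 and 0.34.

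Promoters of the members were searched for short motifs, because factors that bind them are known to act on nuclear genes of mitochondria. RefSeq windows of 300 bases, from 250 before to 50 after the start, were found for 65 of the 74 genes, 71 windows in all, and for 32851 windows of all genes. The core of the NRF1 site, GCATGCG, was in 11.3% of member windows and 3.58% of all windows on either strand. The site of the ETS family, to which GABP belongs, CCGGAAG, was in 33.8% and 8.86%. The YY1 site, AAGATGG, was in 16.9% and 6.34%, and the TATA box, TATAAA, in 7.04% and 13.6%. Each motif was counted on its own, and matches of different motifs may overlap. Genes were grouped by brightest probe set, so Mrpl52 stands with those that did not pass, and Mrps16 counts with each of its windows. Among the 13 windows of genes that fell, 5 had the ETS site, 3 the YY1 site and 0 the NRF1 core. Among the 7 windows of genes that rose, 1 had the ETS site, 1 the NRF1 core and 0 the YY1 site. Among the 50 windows of genes that did not pass, 17 (34.0%) had the ETS site, 9 (18.0%) the YY1 site and 6 (12.0%) the NRF1 core. In the stretches printed above, Mrpl52 had a YY1 site and an ETS site, and those of Mrps24, Mrps14 and Mrpl46 had 0 matches. Their full windows held more: 1 YY1 and 1 TATA match for Mrps24, 1 TATA match for Mrpl46 and 2 ETS matches for Mrpl52, with 0 for Mrps14. A match is only a run of letters, and its part in the changes was not tested.

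**Figure D4:**
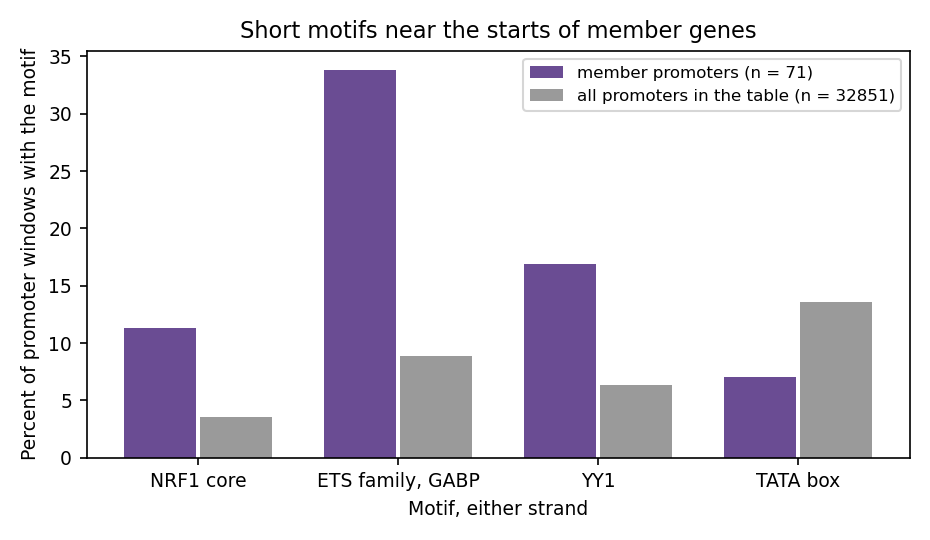
Percent of promoter windows that hold each of 4 short motifs on either strand, for the 71 member windows and the 32851 windows of all genes. The ETS motif was in 33.8% of member windows and 8.86% of all windows, and the TATA box in 7.04% and 13.6%.

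Many members start back to back with another gene. Of 65 member genes with a window, 21 (32.3%) had the start of a gene on the opposite strand within 500 bases upstream, where 2944 of 27025 genes (10.9%) did. In 10 of the 21, with Mrpl46 and Mrps11 counted from either side, the neighbour was tested too, and Mrpl46 was the only member of these past the threshold. Mrpl46 and Mrps11, members of different subunits whose starts lie 42 bases apart, had values of opposite sign. Mrpl46 rose, from 385 ± 23.4 (SD, n = 6) to 468 ± 50.4 (SD, n = 4), and Mrps11 went from 248 ± 55.8 (SD, n = 6) to 186 ± 49.4 (SD, n = 4) and did not pass (-0.38 ± 0.17, adjusted p = 0.0975). Mrps12, the decoding site protein, starts 147 bases from Sars2, the mitochondrial seryl-tRNA synthetase gene. Mrps12 changed by 0.25 ± 0.0947 (adjusted p = 0.0513) and Sars2 by 0.0348 ± 0.0823, and neither passed. Mrpl49 (0.10) did not pass while its neighbour Fau, which encodes a cytosolic ribosomal protein, fell (-0.44 ± 0.0866, adjusted p = 0.00222).

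Other genes that serve the mitochondrial ribosome were counted by brightest probe set. On that count 45.9% of all 8148 genes passed, 1783 higher and 1954 lower, so calls in both directions are no trait of these lists. Of 4 mitochondrial ribosomal proteins that carry other symbols, Chchd1 fell (-0.21 ± 0.0726, adjusted p = 0.0394) and 3 did not pass. Of 15 assembly and ribosomal RNA modification genes, 3 rose and 4 fell. Mterf3, a regulator of mitochondrial transcription and ribosome assembly, rose by 0.52 ± 0.0685, Afg3l2, a protease that matures Mrpl32, by 0.51 ± 0.10, and Mettl17, which acts on small subunit assembly, fell by 0.64 on the log2 scale. Of 11 translation factors 1 rose and 1 fell: the elongation factor genes Gfm1 (0.48 ± 0.11) and Tufm (-0.29 ± 0.0794) went opposite ways. Of 9 genes that charge mitochondrial tRNAs, synthetases and the amidotransferase subunits Gatc and Qrsl1, Iars2 rose (0.30 ± 0.0877) and 8 did not pass. Of 17 genes of mitochondrial transcription, DNA and their regulators, 3 rose and 4 fell. The coactivator genes Ppargc1b (1.04 ± 0.0946, adjusted p = 1.68e-05) and Ppargc1a (0.55 ± 0.11, adjusted p = 0.00286) and their partner Esrra (0.75 ± 0.13, adjusted p = 0.00102) rose, while the related Pprc1 (-0.41 ± 0.0726, adjusted p = 0.00112) and Gabpa, a subunit of GABP (-0.30 ± 0.10, adjusted p = 0.0255), fell. Of 23 protein import genes 4 rose and 6 fell, led by Timm17a (0.61 ± 0.0807) and Timm50 (-0.63 ± 0.14), parts of the same inner membrane translocase.

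The cytosolic ribosome and the respiratory chain are shown for comparison, without a test of the difference. Of 84 probe sets of cytosolic ribosomal proteins 52 were lower and 2 higher, with a median of -0.33, beside 17 lower and 13 higher of the 103 mitochondrial ones and their median of -0.0508. Rplp0, the base of the cytosolic stalk, changed by -1.10 ± 0.0674 (adjusted p = 1.66e-06). Of 135 probe sets of nuclear subunits of the respiratory chain 33 were higher and 9 lower, with a median of 0.0895. The bases of comparison differ, since the median log2 intensity of the tested probe sets was 8.21 for members, 10.97 for the cytosolic ribosome and 10.31 for the respiratory chain.

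**Figure D5:**
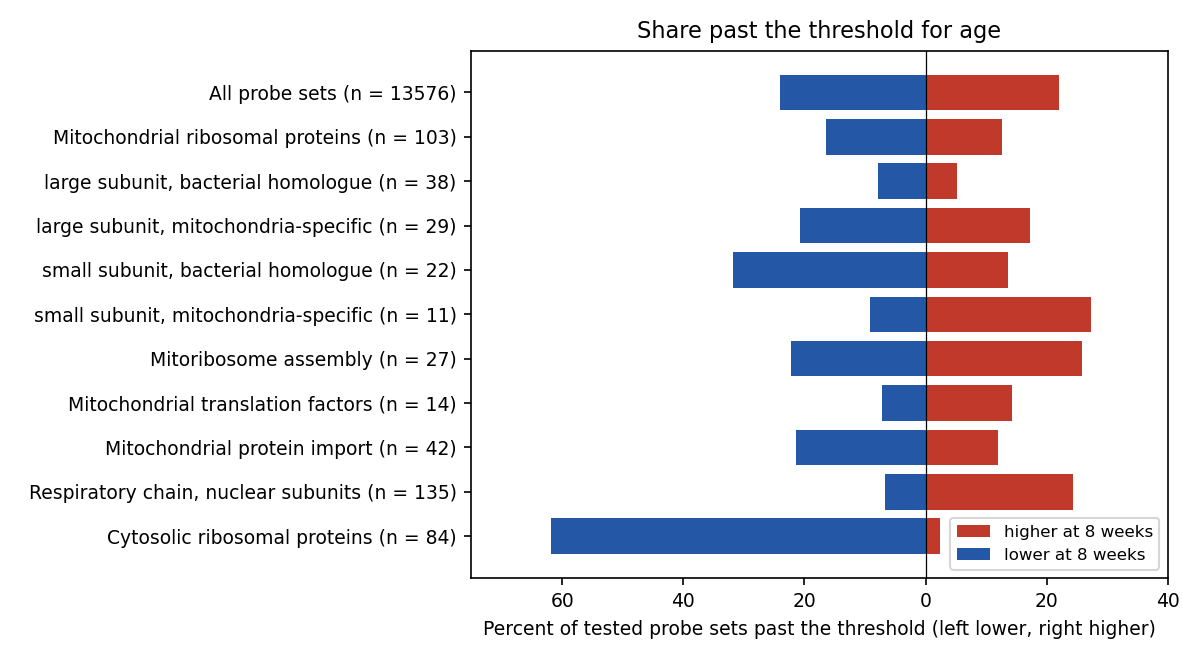
Percent of tested probe sets past the threshold for age, lower to the left and higher to the right, for all probe sets, the members and their classes, and related gene lists. Members stood at 16.5% lower and 12.6% higher, against 61.9% and 2.38% for cytosolic ribosomal proteins and 6.67% and 24.4% for nuclear respiratory chain subunits.

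The second comparison asked whether the labels of sex, or their interaction with age, marked differences in these genes. With limma, 0 of 103 members passed for labelled male minus labelled female over both ages, and 0 of all 13576 probe sets did, 0%. At an unadjusted p under 0.05 there were 2 members (1.94%) and 469 of all probe sets (3.45%). For the interaction of age and label, 0 members passed and 0% of all probe sets, with 7 members (6.80%) and 759 probe sets (5.59%) at an unadjusted p under 0.05. The lowest adjusted p among members was 0.999 for sex, at Mrpl43, and 0.662 for the interaction, at Mrpl9. Since 4 of the 6 labels at 1 week were opposed by sex chromosome transcripts, these counts say little on sex itself.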

How the data were processed

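Each array came with 1 deposited column of linear intensity, 1 value for each probe set. The authors' method of summarising probes is not given in the sources used here. Detection calls were not used. Of 22690 probe sets, 64 controls were left out. Arrays were quantile-normalized, a pseudocount of 24 (the 20th percentile of deposited values) was added and log2 taken, so fold changes of dim probe sets are understated. Probe sets under the 40th percentile of mean log2 were left out, which left 13576. Group means (each age and sex label) were modelled by lmFit and eBayes of limma 3.58.1 under R 4.3.3, and p-values, all two-sided, were adjusted over all probe sets by Benjamini-Hochberg at 0.05. In 1 simulated data set for the age comparison 13576 probe sets were tested. Of added changes that passed the filter, the fit found 60.8% of those of size 0.5 (log2) and 93.5% of those of size 1. Only 100 probe sets were changed at each size, where 46.0% of all passed in the data. These shares therefore need not hold for the real comparison, in which small member changes can be missed. Named genes were the 8 largest falls and 8 largest rises past the threshold by brightest probe set, genes with opposed probe sets and the brightest member. In other lists up to 3 genes per direction were named. Symbols came from the platform annotation (20380 probe sets with 1 symbol, 691 with several, 1555 with none). Alternatives were other scalings, pseudocounts, filters and models, and each array left out. Members and lists were chosen with earlier results of these data known.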

Additional observations from a re-analysis of the deposited data

Results flagged for a closer look

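Mrps24 read 624 in replicate 1 labelled male at 1 week, far above the other 5 arrays of that age, which ran from 398 to 468. That array also had the lowest trimmed mean of deposited intensity, 138. Without it the change of Mrps24 was -0.86 ± 0.0751 (limma adjusted p = 4.30e-05). It was the only outlier among 34 sets of arrays examined, and chance marks about 1 in 20.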

How the results depend on the processing

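Without normalization between arrays 77 members were higher and 1 lower, with a median of 0.46, and Mrps18a, Mrps21, Mrpl57 and Mrpl12 turned to 0.0833, 0.10, 0.13 and 0.12. Scaled to spike-in controls, 3 members were lower and the median was 0.12. With age alone and without the 4 arrays opposing their label 5 were higher, and by brightest probe set per gene 8 were higher. Leaving out each array gave 6 to 13 higher and 13 to 18 lower members, with a median from -0.0686 to -0.00909. The other alternatives kept the counts within 1.5 times. The next correlations are of deviations from the group means, not of the array values themselves. On these deviations, same-numbered samples of different groups correlated at -0.03 to 0.19, with 5 of 13 pairs above 0.1. Different-numbered ones correlated at -0.18 to 0.18, most of them below 0. Deviations from a group mean sum to 0 within the group. The values of different-numbered pairs are thereby tied to those of same-numbered pairs and are no separate evidence. Whether the replicate numbers mark pairs or batches was not tested. With the replicate block 13 members were higher and 19 lower, and the block ended the calls of Mrpl4 and Mrpl22. The counts for sex and interaction stayed at 0 in every alternative run. Of 16 named members 2 kept their call in all alternatives, Mrps24 and Mrpl44. The 60th percentile filter left out Mrpl54 and Mrps9, which had 20 alternatives each, and the other 14 had 21. The causes were not tested.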

Other observations

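The filter left out 24 dim member probe sets, the brightest with a mean normalized intensity of 74.1. The share without overlap among all probe sets left out was not counted, so no trait of the members is read from what follows. In 4 of these member probe sets the arrays of the ages did not overlap, all higher at 8 weeks. Each belongs to a gene with brighter, tested probe sets. These were a probe set of Mrpl51 (7.54 ± 7.89 at 1 week, SD, n = 6, and 34.9 ± 7.15 at 8 weeks, SD, n = 4), of Mrpl3 (6.86 ± 2.18 and 22.0 ± 13.2), of Mrps25 (31.2 ± 4.87 and 56.3 ± 12.7) and of Mrps9 (58.6 ± 13.3 and 94.9 ± 19.3). The dim probe set of Mrpl51 opposed its brighter ones, which changed by -0.48 and -0.0849 and did not pass. These 4 probe sets were not tested. At 1 week those of Mrpl51 and Mrpl3 read below the pseudocount of 24 on every array.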
